A study of Mus musculus with 4 samples.

Results

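The nuclear genes of the mitochondrial respiratory chain were followed as 93 genes, out of 20194 protein-coding and member genes named on the array. They were chosen by name alone. Names starting with Nduf were taken as complex I (45 genes), Sdha to Sdhd as complex II (4 genes), names starting with Uqcr as complex III (8 genes), Cox4 to Cox8 as complex IV (18 genes) and names starting with Atp5 as complex V (18 genes). The array carries 136 probe sequences of 60 bases for them, on 145 spots. The names also take in the complex I assembly factors Ndufaf1 to Ndufaf7, Ndufa4, which is a complex IV subunit by textbook knowledge, 1 pseudogene (Atp5c1-ps), and Atp5s and Atp5sl, which RefSeq now calls Dmac2l and Dmac2. The subunits that mitochondrial DNA encodes, and cytochrome c1 (Cyc1), are outside the rule.

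RNA came from LSK cells of the bone marrow, sorted as lineage-negative, c-Kit+ and Sca-1+, a population that contains blood stem cells and early progenitors. The recipients had been lethally irradiated and then given C57B6 fetal liver cells of embryonic day E14.5. The donor cells were wild type (WT, collected at 16 weeks after transplantation), TET2 knock-down (TET2KD, 10 weeks), JAK2V617F transgenic (16 weeks) or double mutant, carrying both (13 weeks). Each genotype had 5 mice and 1 array. Whether the cells of the 5 mice were pooled, what drives the transgene and how the knock-down was made are not given in the sources used here, and genotype, time after transplantation and array cannot be told apart. With 1 array per genotype no difference between 2 arrays has a replicate check or a p-value, so words such as higher or lower refer to single arrays.

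The respiratory chain sits in the inner mitochondrial membrane. Complexes I and II take electrons from NADH and succinate, complex III passes them from coenzyme Q to cytochrome c, complex IV hands them to oxygen, and complex V, the ATP synthase, uses the proton gradient that complexes I, III and IV build. Each complex has a few catalytic subunits and, except for complex II, many small accessory ones. Quiescent blood stem cells are known to rely on respiration less than the progenitors they give rise to.

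Values below are differences of log2 signal between 2 arrays after each array's 75th percentile had been subtracted, averaged over the probes of a gene. Repeated spots of 1 probe varied with an SD of 0.15 to 0.16 on the log2 scale within an array, which makes the spot noise of a difference about 0.22. The array's 75th percentile signal was 120 to 144, between 49.4% and 54.7% of spots were well above background, and no spot was saturated. Of the 93 genes, 86 had a probe well above background on all 4 arrays (42, 4, 8, 15 and 17 in complexes I to V), and 4 had none on any array (Ndufaf3, Cox7b2, Cox8b and Cox8c). Their 124 probes had a median WT signal of 1180, against 187 for all 22098 probes measured on all 4 arrays. Both Tet2 probes well above background on all 4 arrays were lower on the TET2KD array than on the WT array, at 27.3% and 56.3% of WT, and stood at 60.3% and 61.6% on the double mutant array, where the JAK2V617F array without the knock-down had 73.1% and 105%. A further Tet2 probe was well above background on the double mutant array alone. Jak2 stood at 95.8% to 110% of WT, and the files do not separate the transgene from the mouse gene. Of 8 LSK markers 7 were well above background on every array. Markers of other cells moved too: the summed erythroid signal was 1494% of WT on the TET2KD array, 65.4% on the JAK2V617F array and 689% on the double mutant array, and the summed mature neutrophil signal 151%, 33.7% and 106%. Of 7 erythroid markers 2 were well above background on WT and 4, 5 and 5 on TET2KD, JAK2V617F and double mutant. The summed megakaryocyte signal was 197%, 176% and 97.9% of WT on these arrays, of T and NK cells 52.6%, 86.7% and 91.3%, and of macrophages and dendritic cells 109%, 106% and 128%. Genes of a list did not all share the direction of its sum. Of 6 megakaryocyte genes compared in TET2KD 3 lay above WT and 3 below, some resting on a probe not well above background on 1 side. Of 5 erythroid genes compared in JAK2V617F 3 lay above WT, where they were not well above background, while Hba-a1 was 4.77-fold lower. The B and plasma cell list was mixed: its summed signal was 45.7%, 15.3% and 32.9% of WT, but in TET2KD the plasma cell genes Igj (6.74-fold), Sdc1 (at least 7.90-fold) and Tnfrsf17 (at least 16.2-fold) were higher while the B cell genes Cd79a and Cd79b were 31.4-fold and 4.69-fold lower. The part of these cells in the results below was not tested, and in RNA from many cells fewer cells of a type cannot be told apart from less RNA per cell.

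Most respiratory chain genes had their lowest level on the TET2KD array. Of the 86 genes measured on all 4 arrays, 60 were lowest there, a pattern that 27.7% of 9882 genes measured on all 4 arrays shared. A further 15 were lowest on the WT array (24.8% of all genes), 8 on the double mutant array (23.2%) and 3 on the JAK2V617F array (24.3%). The highest level fell on the JAK2V617F array for 36 genes (24.3% of all genes), on the double mutant array for 26 (21.1%), on the WT array for 22 (28.6%) and on the TET2KD array for 2 (25.9%). Those 2 were Cox6a2, a muscle isoform of complex IV, and Ndufaf5, a complex I assembly factor whose level on the 4 arrays spanned only 1.04-fold. Both JAK2V617F-carrying arrays stood above both others for 39 of the 86 genes, against 19.2% of all genes. These orders use only probes measured on all 4 arrays, which for Ndufab1, Ndufaf4 and Ndufaf5 leaves out probes that enter their differences below. TET2KD below WT with both JAK2V617F-carrying arrays above WT was seen for 28 genes, against 10.1% of all genes.

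**Figure D1:**
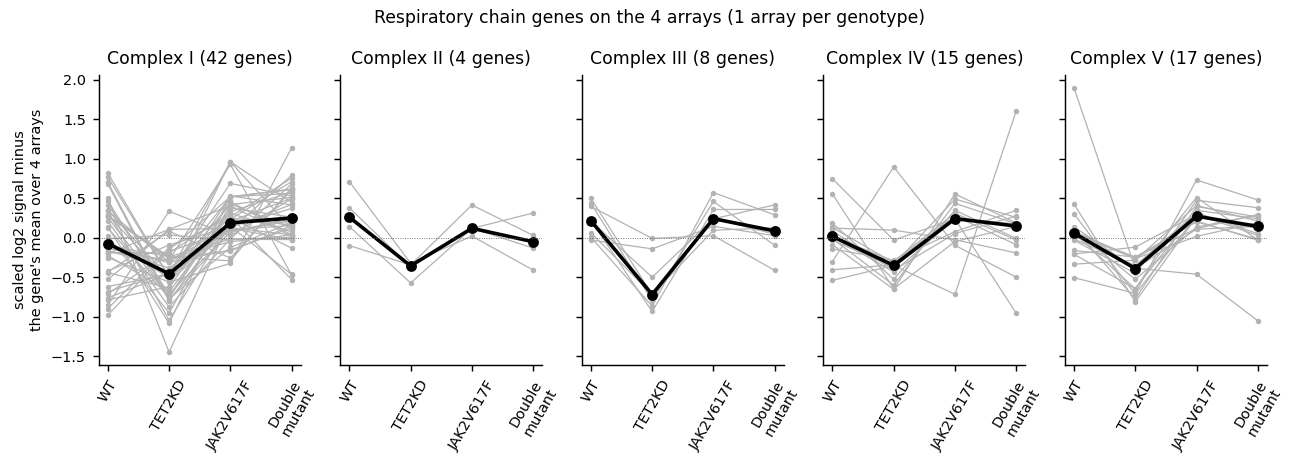
Level of each respiratory chain gene on the 4 arrays, as scaled log2 signal minus the gene's own mean over the 4 arrays (grey, 1 line per gene), with the median of the complex in black; 42, 4, 8, 15 and 17 genes in complexes I to V, 1 array per genotype. The black line dips at TET2KD in every complex, most in complex III (-0.72), and complex I alone has a WT median below 0 (-0.07).

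In each of 5 comparisons of 2 arrays the highest and lowest complex medians were 0.41 to 0.47 apart, gaps that have no replicate check. On the TET2KD array the median difference from WT was -0.38 for complex I, -0.73 for complex II, -0.83 for complex III, -0.45 for complex IV and -0.38 for complex V, beside -0.08 over all 13242 genes compared. All 12 measured genes of complexes II and III lay below WT there, as did 29 of 42 in complex I, 12 of 15 in complex IV and 15 of 18 in complex V, beside 53.4% of all genes. On the JAK2V617F array the medians were small: 0.20, -0.14, 0.09, 0.21 and 0.28 for complexes I to V, beside 0.01 over all genes. On the double mutant array they were 0.27, -0.19, -0.06, 0.16 and 0.14, beside -0.01. Against these medians, the noise of a single spot's difference was about 0.22. Against the TET2KD array the double mutant array was higher in every complex, by 0.73, 0.31, 0.77, 0.60 and 0.51, beside 0.09 over all genes. Against the JAK2V617F array it differed by 0.09, -0.32, -0.16, -0.23 and -0.17, so that complex I alone had a median above 0. Complex II, the enzyme shared with the citric acid cycle, had the lowest median in 4 of these 5 comparisons, and complex III in the remaining one, TET2KD against WT. Complex II has only 4 genes, and the probes of Sdhb and of Sdhc differed in sign in JAK2V617F. The 5 comparisons share arrays, so they are not independent of each other.

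**Figure D2:**
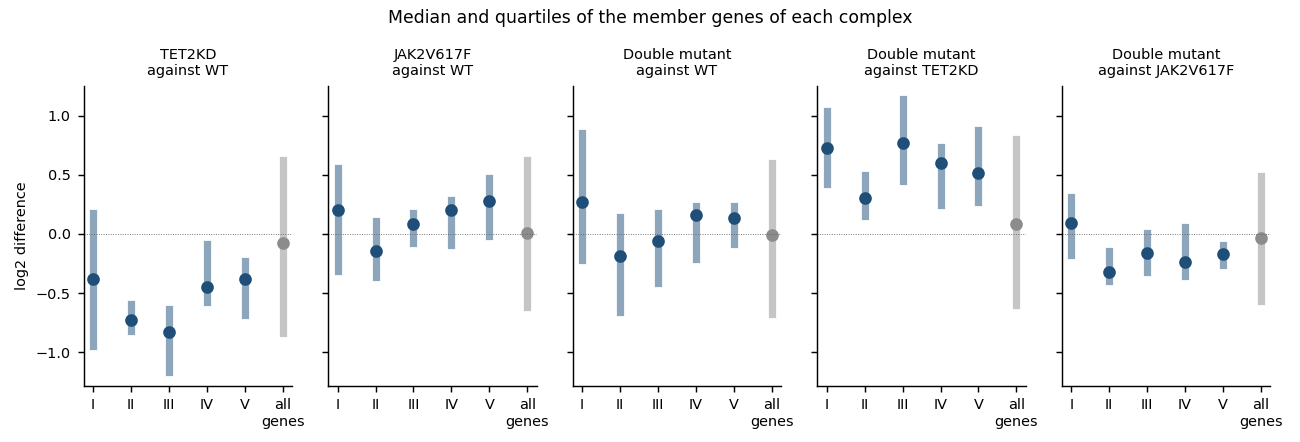
Median (point) and quartiles (bar) of the log2 differences of the measured genes of complexes I to V in 5 comparisons of 2 arrays, with all genes compared in grey. The points of all 5 complexes lie below 0 for TET2KD against WT and above 0 for double mutant against TET2KD, and the bar of complex I is the longest of the 5 for TET2KD against WT (1.13).

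The shares of members past 2-fold were near or under those of all genes, but at 1.5-fold this did not hold for every count. On the TET2KD array 18 of 87 measured genes were at least 2-fold lower than on the WT array (21.3% of all genes) and 2 at least 2-fold higher (15.9%). On the JAK2V617F array 7 of 88 were at least 2-fold higher (16.0%) and 1 lower (15.8%), and on the double mutant array 11 of 87 were higher (15.6%) and 5 lower (17.5%). Between the double mutant and TET2KD arrays 20 of 88 were at least 2-fold higher in the double mutant (20.2%) and 2 lower (16.2%), and between the double mutant and JAK2V617F arrays 4 of 89 were higher (12.2%) and 2 lower (13.7%). The counts of lower genes in TET2KD and of higher genes in the double mutant against TET2KD were thus near the share of all genes, and the other counts below it. Of the genes counted, Ndufab1 (double mutant against WT), Ndufaf1 and Atp5s (against TET2KD) and Ndufaf4 (against JAK2V617F) rest on a probe not well above background on 1 side. By sign alone, 68 of 87 members lay below WT in TET2KD, and their quartiles spanned 0.77 on the log2 scale against 1.46 for all genes, most of which are dimmer.

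Complex I, the NADH dehydrogenase, had the widest spread in TET2KD, with quartiles 1.13 apart. Its 42 genes measured on all 4 arrays fell into 26 lowest on the TET2KD array, 12 lowest on the WT array, and 2 each lowest on the other two. The genes lowest on WT were Ndufs1, Ndufs8, Ndufa5, Ndufa6, Ndufa7, Ndufa9, Ndufa10, Ndufa11, Ndufb6, Ndufb8, Ndufb10 and the assembly factor Ndufaf4. Outside complex I only Cox6a1, Atp5e and Atp5f1 were lowest on WT.

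The 7 core subunits, which carry the flavin, the iron-sulfur clusters and the quinone site, were all above WT on the double mutant array, by 0.27 to 1.04, while 5 of 7 lay below WT on the TET2KD array, 4 of them by no more than the spot noise. Ndufs1, the largest subunit, gave signals of 361 on WT, 485 on TET2KD, 416 on JAK2V617F and 837 on the double mutant array, a difference of 1.04 between double mutant and WT. Ndufs3, of the arm that reduces the quinone, gave 2164, 955, 1891 and 3364 on the same arrays, so it was lowest in TET2KD (-1.09) and highest in the double mutant (0.47). Ndufs8, an iron-sulfur subunit, gave 213, 224, 650 and 399 and was highest on the JAK2V617F array (1.58 above WT). Thus the core genes shared a sign in the double mutant but not the array on which each was highest. Ndufv1 and Ndufv2, which take up NADH and its electrons, were 0.74 and 0.41 above WT in the double mutant and -0.13 and -0.18 from it in TET2KD. Ndufs7 was 0.27 above WT in the double mutant.

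Accessory subunits of complex I differed in both directions. Ndufb8, of the membrane arm, gave 1183, 1246, 4056 and 3124 on WT, TET2KD, JAK2V617F and double mutant, that is 1.75 and 1.23 above WT on the JAK2V617F-carrying arrays and 0.17 in TET2KD. Ndufa5 was above WT on all 3 mutant arrays, 1.78-fold in TET2KD, 2.83-fold in JAK2V617F and 3.03-fold in the double mutant, and Ndufa10 by 0.24, 1.20 and 1.29 on the log2 scale. Both JAK2V617F-carrying arrays were high for these 3 genes. Ndufa6 was high on all 3 mutant arrays (138 on WT, then 295, 259 and 395) and was 1 of the 2 genes at least 2-fold higher in TET2KD. Others went the opposite way. Ndufa2 gave 3390, 1139, 2574 and 2172, lower than WT by 1.48, 0.43 and 0.81 in TET2KD, JAK2V617F and double mutant. Ndufb2 was low in TET2KD and double mutant (-1.27 and -1.30) and at -0.50 in JAK2V617F, so both TET2KD-carrying arrays were low. Ndufc1 and Ndufc2 were lowest in TET2KD (-1.38 and -1.25) and stayed between -0.39 and 0.16 on the other 2 mutant arrays. Ndufs4, needed for the NADH-binding module to be stably attached, gave 782, 679, 1710 and 714, high on the JAK2V617F array only (1.10 above WT, and -1.40 from JAK2V617F to double mutant). Ndufab1, the mitochondrial acyl carrier protein, has 2 probes that disagree. The probe measured on all 4 arrays gave 1071, 431, 1434 and 1458 on WT, TET2KD, JAK2V617F and double mutant, low in TET2KD (-1.22) and only 0.28 above WT in the double mutant. The other probe was not well above background on WT and was at least 10.9-fold higher in the double mutant, so the gene's mean of 1.86 there rests on that floor.

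The assembly factors matched by name had single large differences. Ndufaf6 gave 200 on WT, 48.6 on TET2KD, 170 on JAK2V617F and 260 on the double mutant array, the lowest value of complex I in TET2KD (-1.95). Ndufaf7, a mitochondrial methyltransferase, gave 256, 193, 248 and 753, with the double mutant array high (1.39). Ndufaf2 was lower than WT on all 3 arrays, by 1.31, 0.67 and 1.28. Ndufaf1 was well above background on the double mutant array alone, and Ndufa4l2 on the JAK2V617F array alone.

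**Figure D3:**
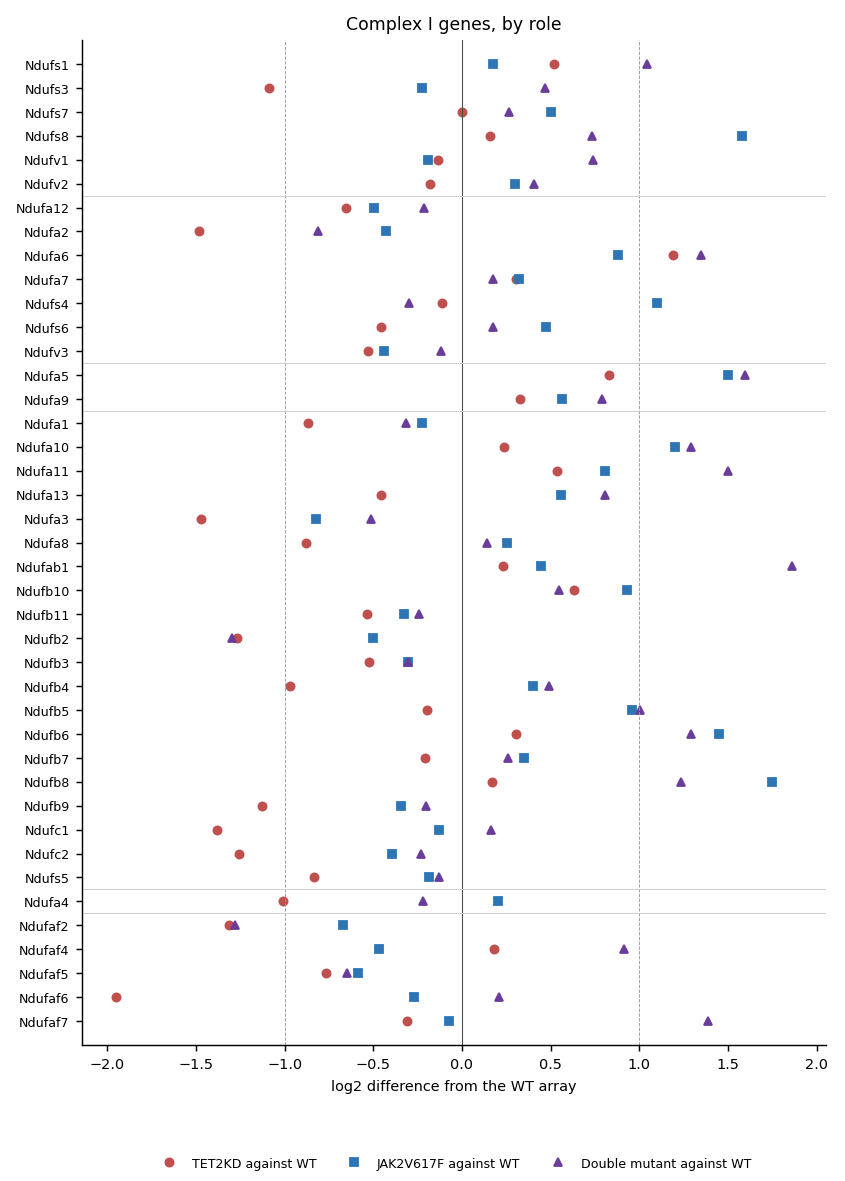
Log2 difference of each of 41 complex I genes from WT on the TET2KD (circle), JAK2V617F (square) and double mutant (triangle) arrays, grouped by role with core subunits on top; dashed lines mark 2-fold. All 6 core triangles shown lie to the right of 0, and the membrane arm runs from -1.47 (Ndufa3, TET2KD) to 1.75 (Ndufb8, JAK2V617F), apart from the Ndufab1 triangle at 1.86, which rests on a probe not well above background on WT (its measured probe is at 0.28).

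Complex II was low in TET2KD, and its median was below WT on the other 2 mutant arrays too. Sdha, the flavoprotein that oxidises succinate, gave 1177 on WT, 540 on TET2KD, 745 on JAK2V617F and 609 on the double mutant array, differences of -1.03, -0.69 and -1.12. All 3 mutant arrays were therefore below WT for Sdha. Sdhb, the iron-sulfur subunit, was -0.71, -0.02 and 0.17 from WT on the same arrays. The membrane anchors Sdhc and Sdhd stood at -0.75, -0.26 and -0.51, and at -0.25, 0.51 and 0.13. All 4 genes were below WT in TET2KD, while Sdhb and Sdhd were above it in the double mutant. A median over 4 genes carries little weight. In JAK2V617F the 2 probes of Sdhb differed in sign (0.40 and -0.45), as did those of Sdhc (0.06 and -0.57). The complex II median on that array lies between the values of these 2 genes.

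Complex III had the lowest median of the 5 complexes in TET2KD. Its 3 named core genes were all more than 2-fold lower there: Uqcrc1 stood at -1.23, Uqcrfs1, the Rieske iron-sulfur protein, at -1.22, and Uqcrc2 at -1.15. The Uqcrc2 probe is printed on 10 spots of each array, which makes it the best measured member. Its 10 spots read 1974 to 2186 (median 2120) on WT, 854 to 929 (890) on TET2KD, 2224 to 2460 (2352) on JAK2V617F and 2526 to 2702 (2591) on the double mutant. No spot of the TET2KD array came near any spot of the other arrays. These signals are unscaled: after scaling, the JAK2V617F and double mutant arrays had the same mean (4.18) and WT a slightly lower one (4.04), against 2.89 for TET2KD. Spots of 1 array share 1 RNA and show only how precise the array is. The probe lies at chr7:127802599-127802658 (mm9, plus strand), and its first 30 bases are given because this gene carries the most precise value here.
Uqcrc2: cttttctcgacgagttataacacatgcgtg
Uqcrc1, the other large structural core protein, gave 739, 295, 767 and 575 on WT, TET2KD, JAK2V617F and double mutant, and Uqcrfs1 gave 1459, 588, 1125 and 1268. Both were lowest in TET2KD, and in neither did a JAK2V617F-carrying array rise past WT by more than the spot noise. Among the small subunits Uqcrq, Uqcr10 and Uqcr11 were at -0.87, -0.78 and -0.71 in TET2KD and at 0.28, 0.35 and -0.17 in the double mutant. Uqcrb differed little (-0.11, 0.17 and 0.05 on TET2KD, JAK2V617F and double mutant). Uqcrh, the hinge protein that binds cytochrome c1, was the exception, lowest in the double mutant (-0.81) and at -0.41 and -0.37 in TET2KD and JAK2V617F.

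Complex IV split into a tight group and a scattered one. The 10 subunits made in all tissues (such as Cox4i1, Cox5a and Cox5b, which surround the catalytic core that mitochondrial DNA encodes) lay between -0.71 and 0.06 in TET2KD, 9 of them below WT, and between 0.23 and 0.84 in the double mutant against TET2KD, all above 0. Cox4i1 gave 6428, 4733, 7998 and 8162 on WT, TET2KD, JAK2V617F and double mutant, a low TET2KD array and the JAK2V617F-carrying arrays within 0.29 of WT. Cox5a was at -0.59, 0.45 and 0.19 and Cox5b at -0.14, 0.22 and 0.49. Cox6a1 differed from this pattern, with TET2KD at WT level (0.06) and the JAK2V617F-carrying arrays high (0.90 and 0.66). The low value in TET2KD was thus common to the ubiquitous subunits other than Cox6a1, and each of those 9 was within 2-fold.

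The tissue isoforms of complex IV each went their own way. Cox6a2, the heart and muscle form of subunit 6a, gave 341, 733, 401 and 334, high on the TET2KD array only (1.20). Cox7a1, the heart and muscle form of subunit 7a, gave 95.2, 102, 85.9 and 473, high on the double mutant array only (2.14, or 4.42-fold). Cox6b2, the testis form of subunit 6b, gave 1725, 944, 1237 and 596, lowest in the double mutant (-1.70). Cox4i2, known from lung, was dim on all 4 arrays (70.8, 28.9, 47.6 and 59.9) and lowest in TET2KD (-1.20). Cox7b2, Cox8b and Cox8c were not well above background on any array. Cox7a2l, which joins complexes III and IV into supercomplexes, stayed within -0.31 of WT.

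In complex V the F1 head and central stalk had the least low median in TET2KD of the 3 groups of subunits below. The 5 genes of the F1 head and central stalk had a median of -0.32 in TET2KD (-0.44 to 0.09), the 3 genes of the c ring, the rotor in the membrane, -0.53 (-0.70 to -0.31), and the 7 genes of the peripheral stalk and other Fo parts -0.63 (-1.24 to 0.05). These groups overlapped. Atp5b, the catalytic beta subunit, gave 882, 611, 1446 and 1492 on WT, TET2KD, JAK2V617F and double mutant, with both JAK2V617F-carrying arrays above both others (0.68 and 0.59). Atp5d, the delta subunit of the stalk, gave 708, 578, 1701 and 1572 and was the only complex V gene at least 2-fold higher in JAK2V617F (1.24). Atp5a1, the alpha subunit, hardly moved apart from a low TET2KD array (-0.32, -0.04 and 0.14). Atp5c1 and Atp5e were at -0.34 and 0.09 in TET2KD and at 0.33 and 0.50 in JAK2V617F. Of the small Fo subunits Atp5j2 and Atp5k were low in TET2KD (-1.24 and -1.01) and between -0.31 and -0.03 on the other 2 mutant arrays. Atp5f1, of the peripheral stalk, was at 0.05, 0.74 and 0.54. The c ring genes Atp5g1, Atp5g2 and Atp5g3, which encode the same mature protein, were at -0.53, -0.31 and -0.70 in TET2KD and within 0.29 of WT elsewhere.

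Atp5sl (Dmac2), which takes part in complex I assembly despite its old name, was the widest of all members. It gave 751 on WT and 145, 149 and 109 on TET2KD, JAK2V617F and double mutant, so that WT alone was high, by 4.87-fold, 5.13-fold and 7.72-fold. It has 1 probe, at chr7:26410510-26410569 (mm9), and it was the only member at least 2-fold lower in JAK2V617F.

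**Figure D4:**
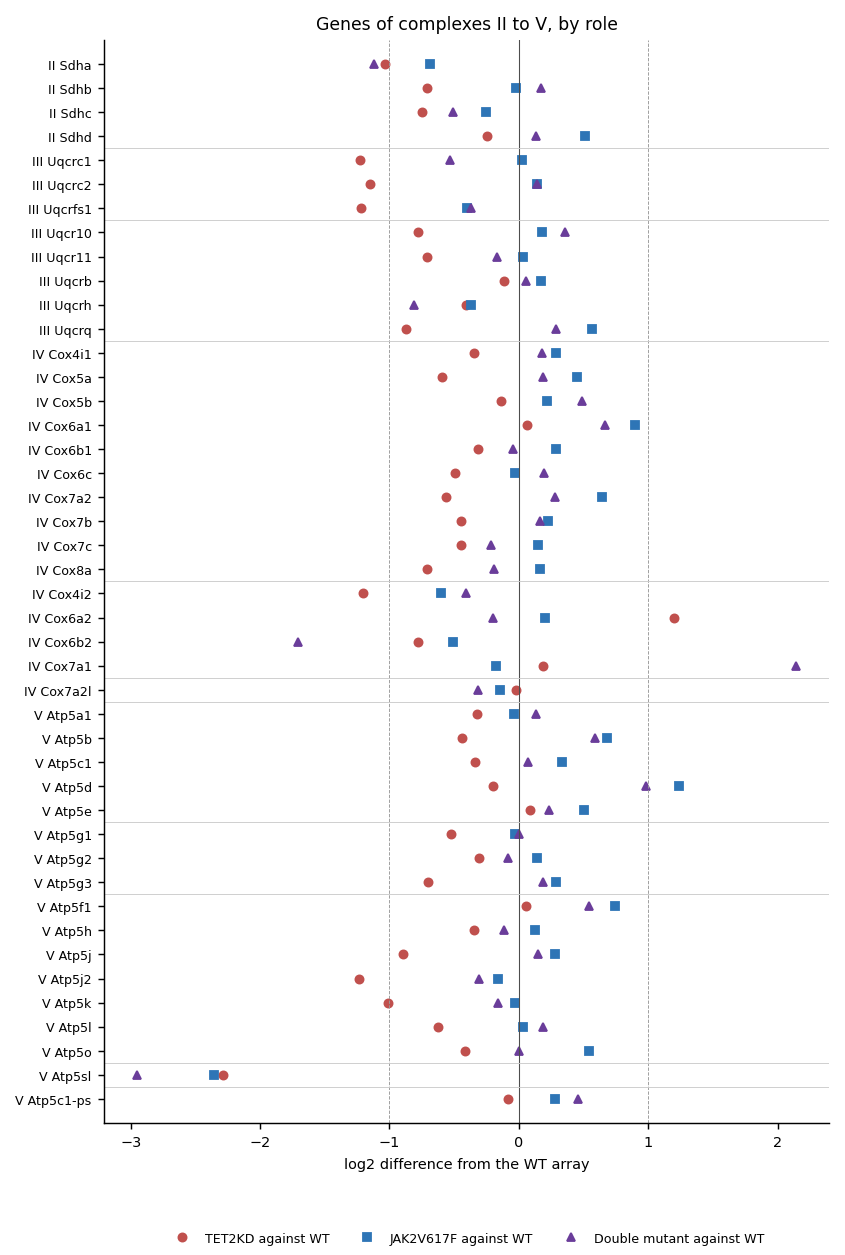
Log2 difference of each of 44 genes of complexes II to V from WT on the TET2KD (circle), JAK2V617F (square) and double mutant (triangle) arrays, grouped by complex and role; dashed lines mark 2-fold. Circles lie leftmost for most genes of complexes III to V, and the isoforms Cox6a2 (1.20, TET2KD), Cox7a1 (2.14, double mutant) and Cox6b2 (-1.70, double mutant) and Atp5sl (-2.95, double mutant) stand far from their complexes.

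The difference that goes with TET2 knock-down could be set side by side without and with JAK2V617F. Over the 86 genes its median was -0.45 without JAK2V617F (TET2KD against WT) and -0.11 with it (double mutant against JAK2V617F), and the per-gene gap between them had a median of 0.44, beside 0.05 over all 9882 genes. The gap had a median of 0.51 in complex I, 0.55 in II, 0.63 in III, 0.24 in IV and 0.34 in V, and was above 0 for 61 of 86 genes, beside 51.8% of all genes. With 1 array per genotype this gap cannot be told apart from array error. An additive fit of both lesions over the 4 arrays (limma, Benjamini-Hochberg over 22098 probes) left 1 residual degree of freedom. It called 0 of 124 member probes for either lesion at an adjusted p of 0.05, as it did for 0% of all probes for TET2KD and 0% for JAK2V617F. At an unadjusted p of 0.05 it passed 1 member probe for TET2KD and 6 for JAK2V617F, of 1201 and 1675 in all. On simulated arrays with the spread this fit estimated, it recovered 0 of 66 probes planted with a log2 shift of 6, so the absence of calls says nothing about the members. In the fit the TET2KD term had a median of -0.30 over the 124 member probes, against 0.003 for all probes. The JAK2V617F term had a median of 0.41, against -0.03. The 124 probes belong to 86 genes, and probes of 1 gene are not independent.

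Probes of the same gene gave a second view of these values, first among probes well above background on all 4 arrays. For 32 pairs of probes less than 100 bases apart (13 genes) the differences in TET2KD against WT had a median gap of 0.08 and a highest gap of 0.57. For 17 pairs at least 500 bases apart (13 genes) the median gap was 0.57 and the highest 2.90. Distances are along the genome and so include introns, and both probes of a close pair read nearly the same stretch. Many of the close pairs come from the 6 probes of 1 gene, Atp5l, so the pairs are not independent. Among all compared probes, Ndufab1 (2.91), Ndufaf5 (1.62) and Ndufaf4 (1.18) also had gaps above 1 in TET2KD, each with a probe that was dim on some array. For JAK2V617F the medians over the measured pairs were 0.12 and 0.33, and for the double mutant 0.10 and 0.40. Gene values that rest on distant probes are therefore less certain than the spot noise says.

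**Figure D5:**
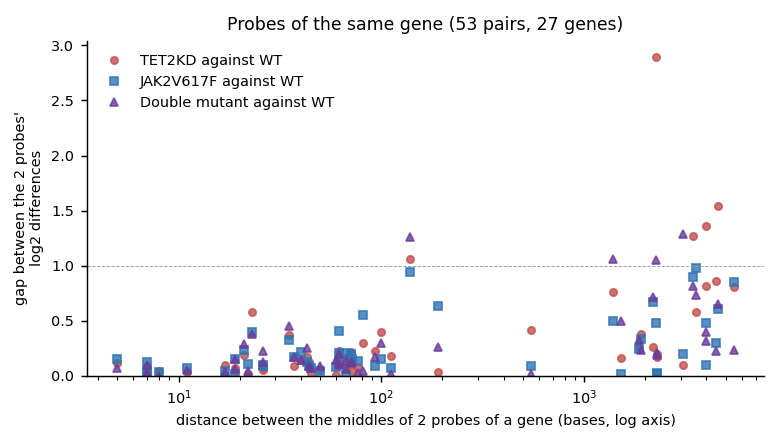
Gap between the log2 differences from WT given by 2 probes of a gene (vertical axis) against the distance between the probes' middles in bases (log axis), for 53 pairs of 27 genes with both probes well above background on all 4 arrays, on the TET2KD, JAK2V617F and double mutant arrays; the dashed line marks a gap of 1. Every gap above 1 among these pairs belongs to a pair over 100 bases apart, and the highest plotted is 2.90 (Ndufa3, TET2KD). Pairs of Atp5k probes that are annotated to different chromosomes have no distance and are not shown.

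Ndufa3, Ndufb6 and Atp5j2 had probes that disagreed in TET2KD by 2.90, 1.54 and 1.27, as did Atp5g1 (1.36) and Ndufb5 (1.06) among the measured pairs, and the first bases of the probes of Ndufa3, Ndufb6 and Atp5j2 are given so that the transcripts they read can be traced. The Ndufa3 probe at chr7:3569447-3569506, designed on an Ensembl transcript, read 163, 20.2, 79.5 and 89.2 on WT, TET2KD, JAK2V617F and double mutant, and the probe at chr7:3571695-3571754, designed on the RefSeq transcript, read 1104, 1019, 750 and 1255. The gene's value of -1.47 in TET2KD thus comes from 1 probe at -2.92 and 1 at -0.02. For Ndufb6 the probe that starts at chr4:40219858 and ends at chr4:40224715, across an intron, gave 706, 1398, 2424 and 2435, and the probe at chr4:40217720-40217779 gave 536, 364, 1212 and 1175. They differ in sign in TET2KD, and both were above WT on the JAK2V617F-carrying arrays. For Atp5j2 the probe at chr5:145948011-145948070 read 7611, 1949, 5076 and 5208 and that at chr5:145944570-145944629 read 1850, 1143, 2303 and 2231. Both were lowest in TET2KD, and they differed in sign on the other 2 mutant arrays. All coordinates are mm9, Ndufa3 on the plus strand and Ndufb6 and Atp5j2 on the minus strand; the exon or UTR each probe lies in was not analysed here, nor was binding of pseudogene copies, of which this gene family has many.
Ndufa3, Ensembl transcript: cagtttgactctgtaggcagaactcctcgg
Ndufa3, RefSeq transcript: atgcctctgctgatggaagaggccccttcc
Ndufb6, across an intron: gttcactattatgtcaaatatcatatggct
Ndufb6, single block: cagcacaagtatgttcctaaagtgctgtat
Atp5j2, higher coordinate: aaacttggagagctgccgagctggataatg
Atp5j2, lower coordinate: gaaccttcataccctgactgagaactagtg

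Promoters of nuclear respiratory genes are known for sites of NRF1, of GABPA (an ETS factor also called NRF2), of YY1 and of the estrogen-related receptor ERRA, so their letters were searched on both strands from 250 bases before to 50 after each RefSeq start (GRCm38.p6). The motifs were GCGCATGC for NRF1, CCGGAAG for GABPA, AAGATGGC for YY1 and TCAAGGTCA for ERRA, and none of them contains another. Windows were found for 76 of the 93 genes (82 windows). GCGCATGC was in 14.6% of member windows and 2.71% of all 32851 windows, CCGGAAG in 20.7% and 8.86%, AAGATGGC in 14.6% and 2.75%, and TCAAGGTCA in 2.44% and 0.423%. A match is a run of letters and not a measured site. The 12 windows with AAGATGGC belonged to complexes I (7 of 41 windows) and V (5 of 20, which include Atp5sl). Complexes II, III and IV had only 3, 5 and 13 windows. Printed here is, for each motif, the first gene by name among those described that holds it, with the searched motifs in capitals; all 4 are in complex V and on the minus strand. They are Atp5g2 (chr15:102670998-102671297), Atp5e (chr2:174464052-174464351), Atp5f1 (chr3:105959214-105959513) and Atp5g3 (chr2:73911277-73911576).
Atp5g2, NRF1: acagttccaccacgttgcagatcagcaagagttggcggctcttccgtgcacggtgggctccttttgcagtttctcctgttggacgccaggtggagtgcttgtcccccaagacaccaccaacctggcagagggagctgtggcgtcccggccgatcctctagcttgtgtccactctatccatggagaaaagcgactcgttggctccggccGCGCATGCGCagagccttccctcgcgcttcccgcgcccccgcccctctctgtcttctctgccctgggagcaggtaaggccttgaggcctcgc
Atp5e, GABPA: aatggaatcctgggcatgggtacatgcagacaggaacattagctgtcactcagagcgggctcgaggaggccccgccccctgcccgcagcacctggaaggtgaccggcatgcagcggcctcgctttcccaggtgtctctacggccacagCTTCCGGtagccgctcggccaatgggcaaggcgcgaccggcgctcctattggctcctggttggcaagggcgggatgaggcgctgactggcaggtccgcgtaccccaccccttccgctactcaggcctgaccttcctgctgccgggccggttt
Atp5f1, YY1: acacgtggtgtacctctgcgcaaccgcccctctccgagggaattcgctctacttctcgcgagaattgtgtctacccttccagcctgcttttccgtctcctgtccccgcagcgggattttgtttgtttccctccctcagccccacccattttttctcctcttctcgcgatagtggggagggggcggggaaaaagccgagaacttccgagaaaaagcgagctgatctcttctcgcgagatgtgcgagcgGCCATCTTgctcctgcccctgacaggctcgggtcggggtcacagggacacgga
Atp5g3, ERRA: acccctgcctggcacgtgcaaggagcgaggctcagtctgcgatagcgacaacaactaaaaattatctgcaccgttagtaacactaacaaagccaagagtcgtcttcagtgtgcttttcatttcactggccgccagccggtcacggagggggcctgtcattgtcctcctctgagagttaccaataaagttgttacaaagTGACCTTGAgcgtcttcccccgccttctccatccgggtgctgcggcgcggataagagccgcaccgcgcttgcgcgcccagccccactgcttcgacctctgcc
In Atp5g2 the capitals are 1 palindromic stretch that matches GCGCATGC on both strands. In TET2KD these 4 genes were at -0.31, 0.09, 0.05 and -0.70 and in JAK2V617F at 0.14, 0.50, 0.74 and 0.29. In TET2KD the genes of the factors stood 2.82-fold lower (Gabpa), at 0.81 (Nrf1, 1 of its 3 probes not well above background on 1 side) and at -0.30 (Yy1). Esrra was at least 3.95-fold lower in TET2KD, where its probe was not well above background, and 1.74 above WT in the double mutant. Any link between them and the members was not tested.

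Other mitochondrial gene lists are given by their counts past 2-fold, to be read beside the shares of all genes: 15.9% higher and 21.3% lower in TET2KD, 16.0% and 15.8% in JAK2V617F, and 15.6% and 17.5% in the double mutant. Of 34 measured assembly factors outside the rule, 16 were at least 2-fold lower in TET2KD and 5 at least 2-fold higher, with a median of -0.83; 9 of the 16 rest on a probe not well above background on the TET2KD array. JAK2V617F had 8 lower and 7 higher, and the double mutant 6 and 8. Foxred1, a complex I assembly factor, was 3.05, 2.49 and 2.81 above WT on TET2KD, JAK2V617F and double mutant, while in TET2KD Coa4, of complex IV assembly, was at least 24.0-fold lower and Nubpl, of complex I assembly, at least 15.6-fold lower. The 17 genes of the citric acid cycle and pyruvate dehydrogenase had medians of 0.08, 0.23 and 0.25 on TET2KD, JAK2V617F and double mutant, with 1 at least 2-fold higher and 3 lower in TET2KD, 4 and 1 in JAK2V617F, and 2 and 0 in the double mutant. Idh3a, a subunit of isocitrate dehydrogenase, was high on all 3 mutant arrays (2.68, 2.84 and 2.20), and Dlat, of pyruvate dehydrogenase, was low (-2.70, -1.64 and -0.85). The 23 import genes had medians of -0.07, 0.50 and 0.42, with 1, 5 and 5 at least 2-fold higher and 2, 0 and 1 lower; Timm17a, a channel subunit, was at 1.42, 2.23 and 2.18. Among cytochrome c and coenzyme Q genes the median was 0.21, 0.30 and 0.26, with 4 of 13, 2 of 12 and 2 of 13 at least 2-fold higher and 3, 1 and 2 lower, all 3 in TET2KD resting on such a probe. Cyc1, the complex III subunit that the name rule leaves out, was not low in TET2KD (0.21) and was 1.40 and 0.90 above WT on the JAK2V617F and double mutant arrays. Regulators of mitochondrial biogenesis had medians of -0.42, 0.40 and -0.17, with 6 of 17, 4 of 18 and 7 of 17 at least 2-fold lower and 2, 1 and 2 higher, with 4 of the 6 lower genes in TET2KD resting on such a probe. Tfb2m, a mitochondrial transcription factor, was at -2.60, -0.59 and -1.51.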

How the data were processed

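RNA of LSK cells from 4 genotypes, 1 array each, had been amplified, labelled with Cy3 and hybridised to Agilent mouse arrays in 1 colour, per the labels' protocols. The deposited intensity values came from Feature Extraction 10.7.3.1, which subtracted background on each array, per the file headers. The deposited series matrix holds log2 values; on each array they differ from the log2 processed signals by 1 constant (0 probes off by more than 0.01), with column medians of -2.64, -2.63, -2.60 and -2.60 for WT, TET2KD, JAK2V617F and double mutant, so scale and centring are known and the reason for the constants is not.

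Here log2 signals had each array's 75th percentile subtracted. Control and outlier spots were left out, spots of a probe and then probes of a gene were averaged. A probe was compared when it was well above background on at least 1 of the 2 arrays, with the other side set to no less than the lowest signal well above background on that array; "at least" marks folds that rest on it. A probe not well above background on both sides of a comparison gave no value. Members and lists were chosen with earlier results of these data known. Genes described are core subunits, the 3 largest differences each way per complex and mutant, tissue isoforms, members whose probes disagreed by over 1, and a few examples from each list chosen by size of difference; others were named after their values were seen. Names were matched to RefSeq symbols (90 members by symbol, 3 by synonym). Reading, spot averaging, scaling, spot SDs and the additive fit were done in R 4.3.3 with limma 3.58.1, and all else in Python 3.11.15. The gene differences and the additive fit were tested on simulated data. Normexp, quantile, median and cyclic loess settings, 2 dim-probe filters, the brightest probe, the series matrix, structural subunits alone, single probes and 1.5-fold were tried. The number of arrays limits the precision. Values of 1 member gene are not reported here.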

Additional observations from a re-analysis of the deposited data

How the results depend on the processing

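The medians of the 5 complexes and of all members in the 5 comparisons kept their sign under all 9 alternatives, and all 270 recomputed medians stayed within the spot noise of the value reported. That noise, about 0.22, is of a single spot's difference and exceeds several of the medians, so it is a loose limit. For TET2KD against WT the median of all members ran from -0.47 to -0.35, and for complex III from -0.90 to -0.72. The smallest, complex III in the double mutant against WT, ran from -0.09 to -0.01. The count of members lowest on the TET2KD array was 58 to 61 under the alternatives. Counts past 2-fold depended more on the setting. At 1.5-fold in place of 2-fold they became 5 higher and 35 lower for TET2KD against WT, 15 and 6 for JAK2V617F against WT, 20 and 8 for double mutant against WT, 47 and 4 for double mutant against TET2KD, and 9 and 7 for double mutant against JAK2V617F. Of all genes, 26.0% and 31.8%, 26.2% and 26.0%, 25.5% and 27.7%, 31.3% and 25.4%, and 21.9% and 24.3% passed 1.5-fold higher and lower in these comparisons, in the same order. Of 87 members 35 were then lower in TET2KD against WT, and of 88 members 47 were higher in double mutant against TET2KD. Both were above the share of all genes, and the other 1.5-fold counts were below it. The counts that follow, under the other settings, show only how a setting moved the count of members. Shares of all genes or probes under those settings are not given, so these counts cannot be set against other genes. With probes counted singly the counts past 2-fold were 5 higher for TET2KD against WT, 11 higher and 4 lower for JAK2V617F against WT, 8 lower for double mutant against WT and 33 higher for double mutant against TET2KD. Among structural subunits alone, which are fewer genes, 0 were lower for JAK2V617F against WT, 3 lower for double mutant against WT, 1 lower for double mutant against TET2KD and 2 higher for double mutant against JAK2V617F. With normexp 0 were higher for TET2KD against WT, 1 lower for double mutant against TET2KD and 2 higher for double mutant against JAK2V617F. With the brightest probe 4 were higher for TET2KD against WT and 2 higher for double mutant against JAK2V617F. Without a filter 2 were lower for JAK2V617F against WT, and with both arrays above background 1 was lower for double mutant against TET2KD. Members highest on the TET2KD array were 1 with normexp and 4 each with quantile scaling and cyclic loess. The causes were not tested beyond what each setting changes by construction. The additive fit called 0 members under each scaling. No paired analysis was possible because each genotype has 1 array. Dim members, such as Cox4i2, Ndufaf6 and 1 Ndufa3 probe, are the least certain.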
